A study of Mus musculus with 8 samples.

Results

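Mouse embryonic fibroblasts (MEFs) make a set of secreted signals that call in or instruct immune cells, and 10 of these genes are described here over 3 doses of RHPS4, out of the 24460 genes counted. They are the interferon-driven chemokines Cxcl10 and Ccl5, the inflammatory chemokines Ccl2, Ccl7, Cxcl1 and Cxcl5, the chemokines Cxcl12 and Cx3cl1, and the cytokines Il6 and Il33. The names were given as a list, to set the interferon-driven chemokines against the others over the doses, and the list was drawn up with their levels at the 3 doses known. The levels and dose differences of these 10 genes are therefore given as a description. Which of them passed the threshold applied to all genes is stated for completeness, with no p value, and supports nothing. RHPS4 is a small molecule that binds G-quadruplexes (G4), four-stranded folds of guanine-rich nucleic acid, and the study asked how it acts on mitochondrial gene expression and genome replication. All cells were wild type MEFs, and the groups differed in the RHPS4 concentration of the medium, untreated (0 µM, 3 libraries), 2 µM (3 libraries) or 10 µM (2 libraries). The labels give an overnight or day-long exposure for the study's cells but not which of these each library had, and they do not say whether the libraries of a dose came from separate cultures. The p values below then measure the spread between these libraries, which may be technical.

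Chemokines are small secreted proteins that direct the movement of leukocytes through G-protein-coupled receptors, and cytokines such as IL-6 and IL-33 change what the receiving cell does. Cxcl10 was named for its induction by interferon gamma, and type I interferons also induce it through the transcription factor complex ISGF3, which binds interferon-stimulated response elements (ISRE). Ccl2, Cxcl1, Cxcl5 and Il6 are classical targets of NF-κB and AP-1, which act downstream of interleukin 1, tumour necrosis factor and pattern recognition receptors. Cxcl12 and Cx3cl1 are made without such stimuli in many stromal cells, the first as a secreted retention signal for stem cells and lymphocytes, the second as a membrane-anchored ligand that proteases can release. IL-33 is kept in the nucleus and acts as an alarm signal when cells are damaged.

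Total counts ran from 10455965 to 26688121 per library, and levels are in CPM, counts relative to the library's total after scaling with edgeR's TMM method. The limit that a count of 0 allows, 3 counts, lay between 0.119 and 0.311 CPM depending on the library, for counting error only. The first 0 µM library stood apart from the other 2. Its chi-square per degree of freedom was 15.4 and 20.2 against them, with 3.23 between those. Between libraries of the other doses the value was 3.91, 10.6 and 5.71 at 2 µM and 8.63 at 10 µM. Changes without the first 0 µM library are given for Ccl2, Cxcl1, Cxcl5 and Cxcl12. The ranges over alternative settings below include the fit without it. Of 8 fibroblast markers, 7 lay above 1 CPM in every library, the exception being Lum, and their summed level was 5315 to 5610 CPM at 0 µM, 4686 to 5245 at 2 µM and 4319 to 5070 at 10 µM. The summed level of 8 leukocyte and macrophage markers was 24.1 to 25.6 CPM at 0 µM, 18.4 to 21.9 at 2 µM and 16.5 to 19.0 at 10 µM. Of these Cd14 had 14.0 to 16.8 CPM at 0 µM and 7.63 and 7.99 CPM at 10 µM, while Ptprc, the pan-leukocyte marker, stayed between 0.535 and 1.14 CPM. Cd68 did not follow Cd14, with means of 5.75, 5.56 and 5.90 CPM at 0, 2 and 10 µM. Adgre1 went the other way, with means of 0.576, 0.905 and 1.21 CPM, from 3 to 23 counts in a library. Endothelial, epithelial and skeletal muscle marker sums reached at most 5.47, 4.06 and 1.73 CPM, and no marker of any list was at 0 in every library of a dose.

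A difference was called at an adjusted p under 0.01 with a fold change over 1.5 in edgeR's quasi-likelihood fit of all 8 libraries, over the 14296 genes that passed the filter on low counts. All 10 genes passed that filter, Il6 only through the 10 µM libraries. Between 2 and 0 µM the calls held 2 of the 10, Cxcl10 and Il33, both lower, where 0.497% of all tested genes were called, 0.119% higher and 0.378% lower. Between 10 and 0 µM they held 4, Cxcl10 and Cxcl1 higher and Cx3cl1 and Il33 lower, where 3.09% of all genes were called, 1.95% higher and 1.14% lower. Between 10 and 2 µM they held 2, Cxcl10 higher and Cx3cl1 lower, where 5.51% were called, 3.92% higher and 1.59% lower. The genes were picked on these contrasts, so nothing is read from those shares. DESeq2, the method of the study, kept each of these edgeR calls. It also called Ccl5 lower at 2 against 0 µM and Cxcl5 higher at 10 against 0 and against 2 µM. The edgeR fit without a filter on low counts did the same. Scaling to total counts in place of TMM shifted the median of all genes by 0.215 on the log2 scale at 10 against 0 µM and by 0.135 at 10 against 2 µM, and raised the share of calls that were higher from 63.1% to 92.6%, from 71.2% to 91.7% and, at 2 against 0 µM, from 23.9% to 39.4%. The direction of Cxcl12 at 10 against 0 µM turned with that scaling, and those of the other 9 genes did not in any of the 3 comparisons. The dot plot of all libraries shows the 10 genes beside each other.

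**Figure D1:**
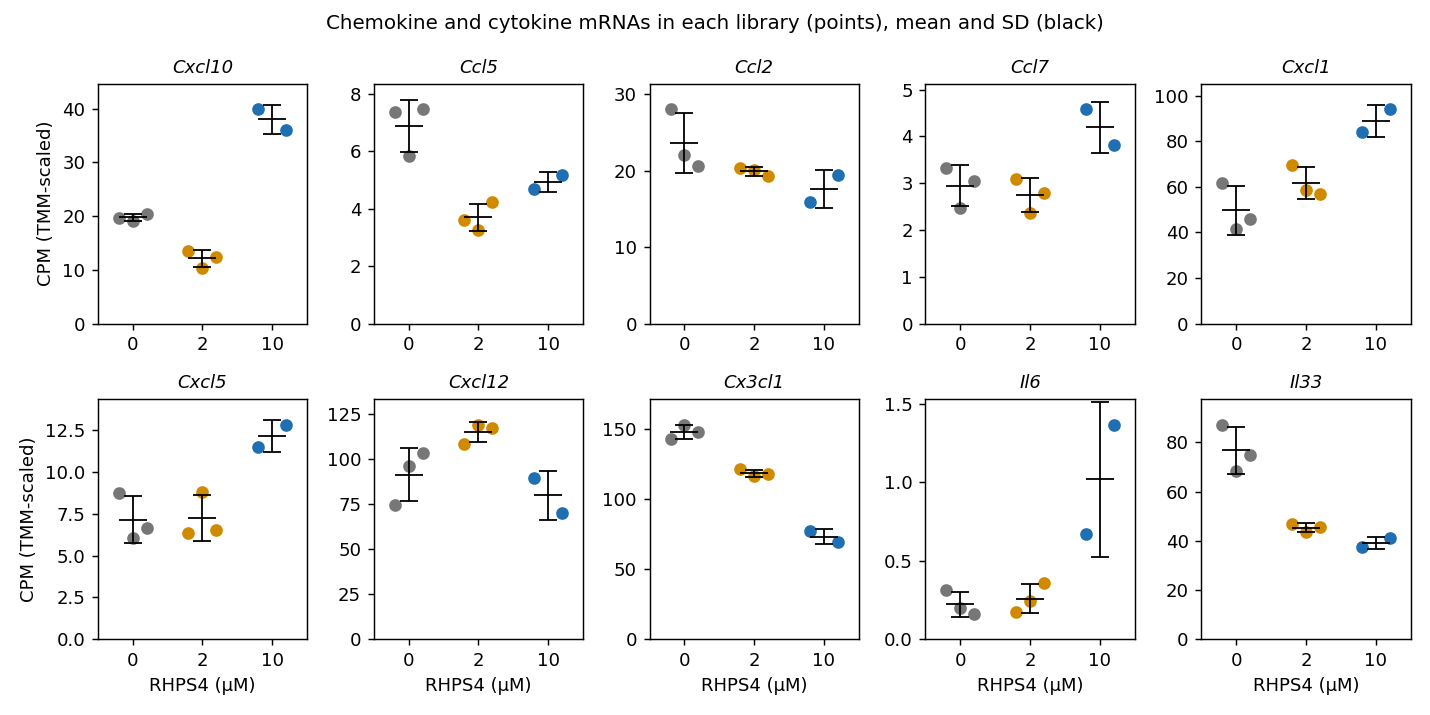
Level of each mRNA in CPM (vertical axes, each from 0) against RHPS4 concentration in µM, with a point per library and the mean and SD in black (3, 3 and 2 libraries). Cxcl10 lay between 10.4 and 13.6 CPM at 2 µM and at 36.1 and 39.9 CPM at 10 µM, whereas Cx3cl1 and Il33 were lower at both doses than at 0 µM.

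Promoters are shown for 4 of the genes, with Cxcl10 from the interferon-driven signals, Cxcl1 and Il6 from the NF-κB targets and Il33 from the others. They are the 250 bases before the RefSeq start in GRCm38.p6, written 5′ to 3′ on the gene's strand, with matches to the ISRE core (GAAA, any 2 bases, GAAA), the AP-1 site TGANTCA and the kappaB consensus in capitals. The windows are chr5:92348890-92349139 on the minus strand for Cxcl10, chr5:90890995-90891244 for Cxcl1, chr5:30012864-30013113 for Il6 and chr19:29924863-29925112 for the first of the 2 listed starts of Il33.
Cxcl10: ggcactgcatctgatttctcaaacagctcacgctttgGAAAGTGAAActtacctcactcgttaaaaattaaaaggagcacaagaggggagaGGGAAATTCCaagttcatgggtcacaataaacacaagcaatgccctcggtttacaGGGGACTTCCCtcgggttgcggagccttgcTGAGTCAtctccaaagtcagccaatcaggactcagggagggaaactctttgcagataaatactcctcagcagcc
Cxcl1: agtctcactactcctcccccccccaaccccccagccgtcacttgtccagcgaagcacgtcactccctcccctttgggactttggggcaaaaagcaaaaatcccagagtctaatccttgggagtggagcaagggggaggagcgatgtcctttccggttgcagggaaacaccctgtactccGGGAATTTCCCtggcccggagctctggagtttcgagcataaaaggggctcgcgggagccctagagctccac
Il6: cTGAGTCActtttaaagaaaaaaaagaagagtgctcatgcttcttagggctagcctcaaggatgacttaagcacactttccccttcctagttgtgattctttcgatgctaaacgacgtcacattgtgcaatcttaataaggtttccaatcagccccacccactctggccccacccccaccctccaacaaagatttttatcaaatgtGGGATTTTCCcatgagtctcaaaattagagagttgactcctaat
Il33: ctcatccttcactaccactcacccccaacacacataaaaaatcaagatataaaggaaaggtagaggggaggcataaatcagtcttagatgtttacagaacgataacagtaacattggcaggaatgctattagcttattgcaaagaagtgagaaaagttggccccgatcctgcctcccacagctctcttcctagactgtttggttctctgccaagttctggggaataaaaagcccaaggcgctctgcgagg
The Cxcl10 window held an ISRE core match, GAAAGTGAAA, 213 to 204 bases before the start, where 2.98% of all 32851 promoter windows held one on either strand. It also held 3 kappaB matches, GGGAAATTCC at 159 to 150 and GGGGACTTCC and GGGACTTCCC, which overlap each other, at 104 to 94, and the AP-1 match TGAGTCA at 74 to 68. Cxcl1 had GGGAATTTCC at 71 to 62, which overlaps a match on the other strand at 70 to 61. Il6 had an AP-1 match at 249 to 243 and GGGATTTTCC at 44 to 35. Of all windows, 7.25% held a kappaB match and 6.75% an AP-1 match. The kappaB matches did not set Cxcl10 apart from Cxcl1 and Il6, since all of these windows held them. Neither Il33 start, nor Cxcl12, nor Cx3cl1 had a match to these motifs or to the interferon gamma activated site TTCNNNGAA, which 7.02% of windows held. A pattern of runs of G, which can fold into a G4, was searched because RHPS4 binds such folds. Among these windows it was found in that of Il6, on the minus strand at 98 to 70 bases before the start, and 16.7% of all windows held it. Of the 10 genes 6 matched the promoter table, with 7 windows, and Ccl5, Ccl2, Ccl7 and Cxcl5 had no entry. A match is a description of the letters and not evidence of binding.

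Cxcl10, the ligand of the T cell receptor Cxcr3, is at chromosome 5 92346638 to 92348889 on the minus strand. It had 19.7, 19.1 and 20.5 CPM in the untreated libraries, 13.6, 10.4 and 12.5 CPM at 2 µM, and 39.9 and 36.1 CPM at 10 µM. Each dose formed a group of its own without overlap, lowest at 2 µM and highest at 10 µM. The mean of 19.8 ± 0.703 CPM (SD, n = 3) became 12.2 ± 1.59 (n = 3) and 38.0 ± 2.66 (n = 2). The log2 fold change was −0.70 (SE 0.106) at 2 µM, a level 1.63-fold lower, and 0.94 (SE 0.107) at 10 µM, 1.92-fold higher, and from 2 to 10 µM it was 1.64 (SE 0.112), 3.12-fold. Over 17 alternative settings these log2 fold changes ran from −0.777 to −0.605, from 0.837 to 1.157 and from 1.529 to 1.780. At 2 µM Cxcl10 was no longer past the threshold when any library other than the first 0 µM library was left out, or when the 10 µM libraries were left out together. In the annotation Cxcl10 overlaps Art3 on the opposite strand, which had 2 to 10 counts per library where Cxcl10 had 128 to 653. Fewer cells making an mRNA and less of it per cell cannot be told apart in such bulk samples.

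Ccl5, which attracts T cells and monocytes through receptors that include Ccr1 and Ccr3, lies at chromosome 11 83525778 to 83530518. The untreated libraries had 7.37, 5.85 and 7.46 CPM, those at 2 µM 3.61, 3.26 and 4.22 CPM, and those at 10 µM 4.70 and 5.18 CPM. Like Cxcl10 it was lowest at 2 µM without overlap, but at 10 µM both libraries were below all untreated ones. The log2 fold changes were −0.87 (SE 0.157) at 2 µM, −0.48 (SE 0.166) at 10 µM and 0.40 (SE 0.184) from 2 to 10 µM. Over the alternatives the first ran from −0.992 to −0.792 and the second from −0.610 to −0.262. The 2 interferon-driven chemokines were thus alike in their order between 2 µM and the other doses and on opposite sides of the untreated level at 10 µM.

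Ccl2 and Ccl7, neighbouring ligands of the monocyte receptor Ccr2, lie at chromosome 11 82035571 to 82037453 and 82045712 to 82047525 on the same strand. Ccl2 had 28.0, 22.1 and 20.7 CPM without RHPS4, 20.4, 20.1 and 19.3 CPM at 2 µM, and 15.9 and 19.4 CPM at 10 µM. Every treated library was below every untreated one, but by little, and the 2 and 10 µM libraries overlapped. The log2 fold changes were −0.23 (SE 0.122) at 2 µM and −0.40 (SE 0.137) at 10 µM, and without the first 0 µM library they were −0.10 and −0.30. Ccl7 had 3.32, 2.48 and 3.06 CPM at 0 µM, 3.09, 2.36 and 2.79 CPM at 2 µM, and 4.58 and 3.81 CPM at 10 µM. The 2 µM libraries of Ccl7 overlapped the untreated ones and the 10 µM libraries were above both groups, with a log2 fold change of 0.54 (SE 0.188) against 0 µM and 0.62 (SE 0.197) against 2 µM. These neighbours therefore lay on opposite sides of their untreated levels at 10 µM, with log2 fold changes over the alternatives from −0.577 to −0.184 for Ccl2 and from 0.362 to 0.749 for Ccl7. Ccl2 overlaps the annotated gene Gm17268 on the opposite strand, which the count table does not list, and the strand setting of the counting is not given in the sources used here.

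Cxcl1 and Cxcl5 attract neutrophils through Cxcr2 and lie in the same cluster, at chromosome 5 90891241 to 90893115 and 90759360 to 90761624. Cxcl1 had 61.8, 41.4 and 45.8 CPM at 0 µM, 69.7, 58.7 and 56.8 CPM at 2 µM, and 84.0 and 94.0 CPM at 10 µM. The first untreated library reached into the 2 µM range, and both 10 µM libraries were above all others. The log2 fold change was 0.33 (SE 0.135) at 2 µM and 0.86 (SE 0.147) at 10 µM, 1.81-fold, and without the first 0 µM library these were 0.50 and 1.00. The log2 fold change at 10 µM lay between 0.721 and 1.075 over all alternatives, and was no longer past the threshold without the second or the third 0 µM library, without either 10 µM library, and with only the 2 groups compared in the fit. Cxcl5 had 8.72, 6.05 and 6.67 CPM at 0 µM, 6.35, 8.80 and 6.54 CPM at 2 µM, and 11.5 and 12.8 CPM at 10 µM. It was at the same level at 0 and 2 µM within the spread of the libraries, with a log2 fold change of 0.05 (SE 0.168), and above both at 10 µM, by 0.80 (SE 0.172) against 0 µM. The difference at 10 against 0 µM ran from 0.677 to 1.018 over the alternatives and was 0.90 without the first 0 µM library.

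Il6, a cytokine of fever and the acute phase response, lies at chromosome 5 30013114 to 30019981 and was close to the counting limit. It had 0.311, 0.198 and 0.159 CPM at 0 µM, from 3, 4 and 4 counts, and 0.176, 0.245 and 0.357 CPM at 2 µM. At 10 µM it had 0.672 and 1.37 CPM, from 11 and 19 counts. Both 10 µM libraries were above all 6 others, but they differed from each other by more CPM than the lower one did from the untreated mean. Summed over libraries there were 11 counts at 0 µM, 11 at 2 µM and 30 at 10 µM, and relative to total counts the ratio of 10 to 0 µM was 5.73. Il6 passed the filter on low counts only through the 10 µM libraries, so this ratio is a description of those counts. The fitted log2 fold change was 2.27 (SE 0.480), which depended on the prior count and ran from 1.671 to 2.686 over the alternatives that gave a value.

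Cxcl12, the ligand of Cxcr4 and Ackr3, lies at chromosome 6 117168535 to 117181367. Its levels were 74.8, 96.1 and 103 CPM at 0 µM, 109, 119 and 117 CPM at 2 µM, and 89.6 and 70.4 CPM at 10 µM. The 2 µM libraries were the highest, the reverse of Cxcl10, and the 10 µM libraries lay in or under the untreated range. The log2 fold change was 0.33 (SE 0.120) at 2 µM and −0.20 (SE 0.135) at 10 µM, and −0.52 (SE 0.136) from 2 to 10 µM. Without the first 0 µM library, the lowest of its group, the first 2 were 0.21 and −0.34, and scaled to total counts the change at 10 µM was 0.014.

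Cx3cl1, whose only known receptor Cx3cr1 is found on monocytes, microglia and some lymphocytes, lies at chromosome 8 94772009 to 94782427. It had 143, 153 and 148 CPM at 0 µM, 121, 116 and 118 CPM at 2 µM, and 77.1 and 69.6 CPM at 10 µM. Its level was lower with each dose and no group overlapped another. The mean was 148 ± 4.92 CPM (SD, n = 3), 119 ± 2.59 (n = 3) and 73.3 ± 5.34 (n = 2). The log2 fold change was −0.32 (SE 0.0676) at 2 µM, under the fold threshold, and −1.015 (SE 0.0783) at 10 µM, 2.02-fold lower, with a range from −1.122 to −0.799 over the alternatives. From 2 to 10 µM it was −0.69 (SE 0.0780), from −0.810 to −0.558 over the alternatives, and under the fold threshold when scaled to total counts.

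Il33, at chromosome 19 29925114 to 29960718, had 87.1, 68.4 and 74.7 CPM at 0 µM, 46.8, 43.5 and 45.8 CPM at 2 µM, and 37.5 and 40.9 CPM at 10 µM. It too was lower at both doses without overlap, but most of the difference was already there at 2 µM. The mean was 76.7 ± 9.49 CPM (SD, n = 3), 45.4 ± 1.67 (n = 3) and 39.2 ± 2.39 (n = 2). The log2 fold change was −0.75 (SE 0.0924) at 2 µM, 1.68-fold lower, and −0.96 (SE 0.106) at 10 µM, 1.95-fold lower, and from 2 to 10 µM it was −0.21 (SE 0.106). Over the alternatives the first lay between −0.823 and −0.651 and the second between −1.058 and −0.744. At 2 µM Il33 was no longer past the threshold without the third 0 µM library or without any of the 3 libraries at 2 µM. Cd14, the lipopolysaccharide co-receptor among the leukocyte markers, was also lower at 10 µM (log2 fold change −0.95, adjusted p = 0.000868 in edgeR). It was not past the threshold without the first 10 µM library. Of the fibroblast markers only Pdgfrb was called there (−0.60, adjusted p = 0.000248 in edgeR). The others changed by −0.58 (Col1a1), −0.375 (Lum), −0.34 (Dcn), −0.17 (Fbln2), −0.10 (Col1a2), −0.07 (Thy1) and −0.005 (Pdgfra). Any part of Cd14 or Pdgfrb in the lower Il33 and Cx3cl1 was not tested.

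**Figure D2:**
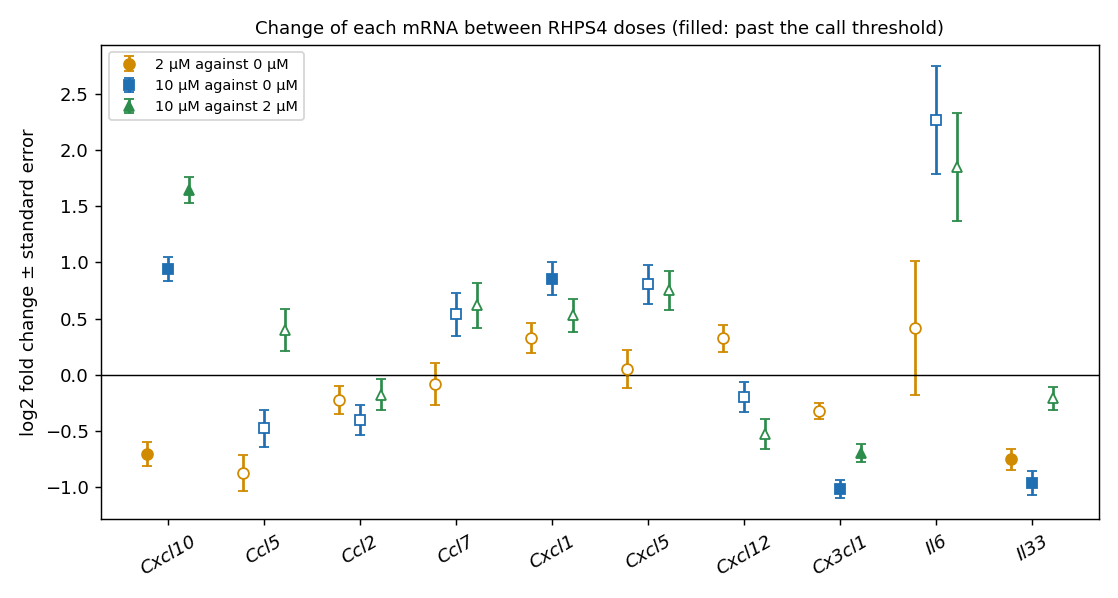
Log2 fold change with its standard error (vertical axis) for each of the 10 mRNAs in the 3 comparisons of RHPS4 doses, filled where past the call threshold. Cxcl10 lay at −0.70 at 2 µM and 0.94 at 10 µM, Cx3cl1 and Il33 were negative in all 3 comparisons, and Il6 had the widest errors.

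Between 2 and 0 µM the libraries of the doses did not overlap for 6 of the 10 genes, 5 lower and 1 higher, where 25.7% of all tested genes did not overlap, 12.7% higher and 12.9% lower. Between 10 and 0 µM there were 9, 5 higher and 4 lower, where 42.9% did not overlap, 22.9% higher and 20.0% lower, and between 10 and 2 µM 9, 6 higher and 3 lower, where 51.8% did not, 27.0% higher and 24.9% lower. The median log2 fold change of the 10 genes was −0.15, 0.17 and 0.46 in the 3 comparisons, beside −0.01, 0.02 and 0.03 for all tested genes. Since these contrasts chose the genes, the shares and medians describe the list and carry no test.

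The order of the levels was read per length, as mean CPM per kilobase of annotated exon. This length joins the exons of all annotated transcripts of a gene, so the order depends on it. Cxcl12, with the longest at 8.176 kilobases, had a mean of 91.4 CPM at 0 µM before this division. At 0 µM it ran from Cx3cl1 with 37.7 ± 1.25 (SD, n = 3) over Il33 with 26.6 ± 3.29, Cxcl1 with 26.5 ± 5.71, Ccl2 with 20.7 ± 3.43, Cxcl12 with 11.2 ± 1.82, Cxcl10 with 8.78 ± 0.312, Ccl5 with 7.18 ± 0.945, Cxcl5 with 3.84 ± 0.751 and Ccl7 with 3.69 ± 0.539 to Il6 with 0.0918 ± 0.0326. The libraries overlapped for Il33 and Cxcl1, for Cxcl1 and Ccl2, and for Cxcl5 and Ccl7, so those neighbours cannot be ordered. At 2 µM Cxcl1 (32.9 CPM per kilobase) and Cx3cl1 (30.2) led and overlapped, and Cxcl10, Cxcl5, Ccl5 and Ccl7 formed a group from 5.40 down to 3.43 in which each overlapped the next. At 10 µM Cxcl1 stood alone at 47.5 CPM per kilobase. Cx3cl1 followed with 18.7, Cxcl10 with 16.9, Ccl2 with 15.5 and Il33 with 13.6, each overlapping the next, so those neighbours cannot be ordered. By its mean alone Cxcl10 ranked 6 at 0 µM and 3 at 10 µM. In the 10 µM libraries its level was therefore among those of Cx3cl1, Ccl2 and Il33, which were each above it in every untreated library.

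**Figure D3:**
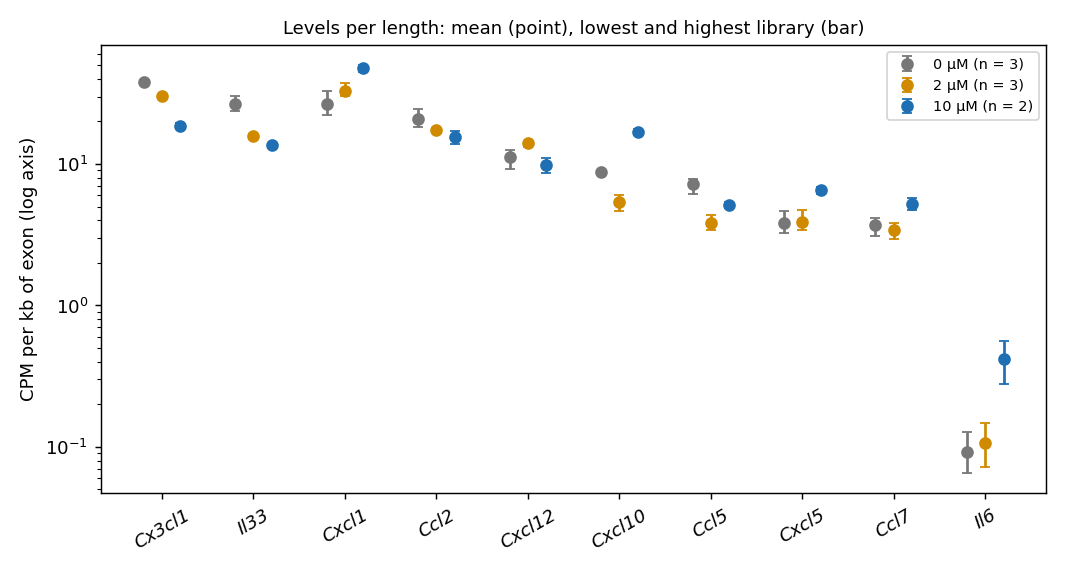
Level in CPM per kilobase of annotated exon (log axis) of the 10 mRNAs at each RHPS4 dose, as the mean with the lowest and the highest library. The span from Cx3cl1 at 37.7 to Ccl5 at 7.18 at 0 µM holds 7 of the genes, and Il6 lies far under the others at every dose.

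Ratios between mRNAs within a library are free of the scaling. Between Cxcl10 and Cx3cl1 counts the log2 ratio, with 0.5 added to each, was −2.86, −3.00 and −2.85 at 0 µM, −3.16, −3.48 and −3.24 at 2 µM, then −0.951 and −0.945 at 10 µM. It was thus lowest at 2 µM in all libraries and its mean at 10 µM was 1.96 above that at 0 µM. The log2 ratio to Ccl2 averaged −0.24 ± 0.248 (SD, n = 3) at 0 µM, −0.72 ± 0.194 (n = 3) at 2 µM and 1.11 ± 0.306 (n = 2) at 10 µM, again without overlap. Relative to Il33 the picture at 2 µM was another one: the mean log2 ratio of Cxcl10 to Il33 was −1.95 ± 0.166 at 0 µM, −1.90 ± 0.140 at 2 µM and −0.05 ± 0.189 at 10 µM. Both mRNAs were lower at 2 µM by a like amount and parted at 10 µM. The log2 ratio to Ccl5 behaved likewise, with means of 1.52, 1.71 and 2.93. Against Cxcl1, whose libraries at 2 µM overlapped the untreated ones and at 10 µM lay above them, the mean log2 ratio was −1.31, −2.34 and −1.23. The 10 µM libraries had ratios of −1.075 and −1.379, which overlapped the untreated range of −1.644 to −1.118. Of the 9 ratios of Cxcl10, 6 were below the untreated range in all 2 µM libraries, 6 were above it at 10 µM, and 8 were higher in every 10 µM than in every 2 µM library, the exception being the ratio to Il6. All 9 share the Cxcl10 counts and are not independent of each other.

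**Figure D4:**
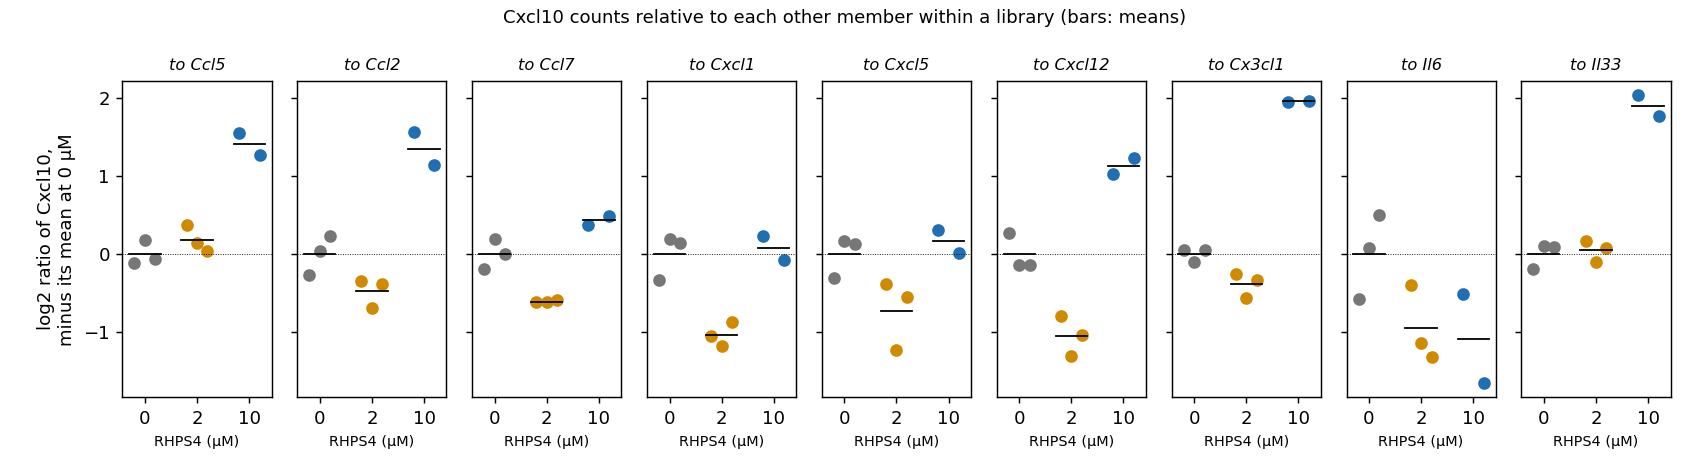
Log2 ratio of Cxcl10 counts to those of each of the other 9 mRNAs within a library, minus its mean at 0 µM (vertical axis), against RHPS4 concentration in µM, with a point per library and a bar at the mean. The ratios to Cx3cl1 and Il33 lay 1.96 and 1.90 above their untreated means at 10 µM, and those to Ccl5, Il6 and Il33 overlapped the untreated libraries at 2 µM.

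The tested genes whose log2 CPM followed these patterns most closely are given by Pearson's r over the 8 libraries, which share dose and depth, as a description. For Cxcl10 they were Smim14 (r = 0.990), Sat2 (0.989) and Dhx40 (0.985). Sat2 had 4.26, 3.82 and 3.93 CPM at 0 µM, 3.00, 2.36 and 3.15 at 2 µM, then 6.78 and 6.33 at 10 µM, the same order of doses as Cxcl10. For Il33 they included Dync1i1 (0.991) and Pdk1 (0.986), and for Ccl2 Tes (0.967), Tgfb3 (0.961) and Papss1 (0.956). For Cx3cl1 they were TRNL1 (0.990), Fmnl3 (0.989) and ND2 (0.988), of which TRNL1 and ND2 are encoded by the mitochondrial genome. ND2 had 926, 1155 and 1125 CPM at 0 µM, 697, 602 and 801 at 2 µM, then 328 and 238 at 10 µM, lower with each dose and without overlap.

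Other ligands, receptors and regulators were taken as 6 lists of genes, which were also drawn up with earlier results of these data known. At 2 against 0 µM edgeR called 0 genes in each list, and DESeq2 likewise 0. At an unadjusted p under 0.05 there were 1 of 7 tested other chemokines, 6 of 18 other cytokines, 6 of 15 receptors, 8 of 14 genes of interferon signalling, 7 of 18 of NF-κB signalling and feedback, and 4 of 14 of cytokine mRNA decay and ligand processing, beside 21.3% of all tested genes. Of 26 other chemokines 19 were not tested, with at most 14 counts in a library. They include Cxcl9, which with Cxcl10 and Cxcl11 makes up the Cxcr3 ligands and had 4 to 9 counts per library, and Cxcl2, the neighbour of Cxcl1, with 0 to 9. Cxcl11 was tested, at 1.04, 0.446 and 0.675 CPM at 0 µM, 0.176, 0.489 and 0.238 at 2 µM, then 0.488 and 0.935 at 10 µM, from 2 to 17 counts. Its log2 fold change was −1.13 (SE 0.506, adjusted p = 0.226) at 2 µM and 0.07 (SE 0.457, adjusted p = 0.936) at 10 µM, and its groups overlapped. No other chemokine was called at 10 against 0 or 2 µM by edgeR or DESeq2, and 2 of the 7 had an unadjusted p under 0.05 in each comparison, where 29.4% and 36.5% of all genes did. At this depth Cxcl10 was thus the Cxcr3 ligand with enough counts to follow.

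Among 29 other cytokines 18 were tested. At 10 against 0 µM 2 were called, both higher, beside 3.09% of all genes and with a list median of 0.23 beside 0.02. These were Il7, a growth factor of lymphocytes (log2 fold change 0.92, SE 0.150, adjusted p = 0.00264), and Flt3l, a growth factor of dendritic cells (0.84, SE 0.175, adjusted p = 0.00984). Il7 had 14.5, 9.47 and 10.5 CPM at 0 µM, 15.0, 14.3 and 15.3 at 2 µM, then 20.0 and 22.3 at 10 µM. Without 1 library at a time, the call of Il7 was lost without the second or the third 0 µM library or either 10 µM library (adjusted p up to 0.0343), and that of Flt3l held in 1 of 8 fits, the one without the first 10 µM library (adjusted p up to 0.135). Both were lost with only the 2 groups compared. At 10 against 2 µM edgeR called 4, beside 5.51% of all genes: Il18, Flt3l and Il15 were higher (0.97, 0.96 and 0.75, adjusted p = 0.00412, 0.00398 and 0.00934) and Clcf1, a ligand of the IL-6 family, was lower (−0.59, adjusted p = 0.000713). DESeq2 called 3 of these, without Il15. Il15, which feeds natural killer and memory T cells, held in 1 of the 8 fits that each left out a library, the one without the first 0 µM library (adjusted p up to 0.0877). Il18 was lost without any 2 µM library or the second at 10 µM (up to 0.0539), Flt3l without the second or the third 2 µM library or the second at 10 µM (up to 0.0517), and Clcf1 slipped under the fold threshold without the third 0 µM or the first 2 µM library, where its adjusted p was at most 0.0065. Flt3l and Clcf1 overlap other annotated genes on their own strand, so their counts are uncertain.

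The mRNAs of receptors for such signals were counted in the MEFs as well. Their levels do not show which signals the cells could receive, since protein and response were not measured. Of 29 receptors 14 had too few counts to be tested, with at most 16 in a library, among them Cxcr3 with 0 to 2 counts, Cxcr2 with 1 to 11, Cx3cr1 with 2 to 16 and Ccr2 with 0 to 10. Ccr1, a receptor of Ccl5, was tested, with 1.14, 0.892 and 1.31 CPM at 0 µM. At 10 µM it had 0.244 and 0.432 CPM, from 4 and 6 counts. That log2 fold change of −1.74 (SE 0.419, adjusted p = 0.0194 in edgeR) was not past the threshold. Ackr3, the scavenging receptor of Cxcl12, was present at 13.9 to 15.6 CPM at 0 µM, 12.1 to 12.6 at 2 µM and 12.4 and 13.1 at 10 µM (log2 fold change at 10 µM −0.21, SE 0.103, adjusted p = 0.189 in edgeR). Il1rl1, the receptor of IL-33, was abundant, with 457, 404 and 410 CPM at 0 µM, 467, 442 and 442 at 2 µM, then 395 and 426 at 10 µM. Its log2 fold change of −0.05 (SE 0.0822, adjusted p = 0.743) stands beside −0.96 for the ligand Il33. Il1rap, the co-receptor chain that IL-33 signalling shares with IL-1, had 58.6, 63.0 and 60.8 CPM at 0 µM, 56.8, 58.8 and 57.4 at 2 µM, then 39.1 and 44.6 at 10 µM. Its 10 µM libraries were below all others, with a log2 fold change of −0.54 (SE 0.0832, adjusted p = 0.00191 in edgeR) that was under the fold threshold. Il6st, the signalling chain for IL-6, had 520 to 524 CPM at 0 µM and 590 and 629 at 10 µM (0.22, SE 0.0783, adjusted p = 0.0817), and Il6ra, the chain that binds IL-6, had 11.4, 18.0 and 18.8 CPM at 0 µM and 11.1 and 9.42 at 10 µM (−0.68, SE 0.218, adjusted p = 0.0605). Of the 15 tested receptors 1 was called, against 0 µM and against 2 µM, beside 3.09% and 5.51% of all genes, so these counts are near the background. It was Il4ra, lower at 10 µM (−0.67, SE 0.0956, adjusted p = 0.00108 against 0 µM and −0.89, SE 0.0961, adjusted p = 0.000135 against 2 µM), and the former call was lost with total counts and without the second 10 µM library.

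Genes of interferon signalling were the list with the most calls, all of them at 10 µM. At 10 against 0 µM 5 of the 14 tested were called, all higher, beside 1.95% of all genes called higher, with a list median of 0.24 beside 0.02. Among them were Irf7 (log2 fold change 1.49, SE 0.129, adjusted p = 3.37e-05), Usp18 (1.59, SE 0.152, adjusted p = 6.85e-05), Irf9 (0.87, SE 0.0975, adjusted p = 0.000235) and Stat2 (0.75, SE 0.106, adjusted p = 0.0011). Stat2 and Irf9 are subunits of ISGF3, Irf7 drives interferon genes, and Usp18 dampens the receptor. Irf9 had 38.7, 31.9 and 33.4 CPM at 0 µM, 29.2, 28.2 and 26.5 at 2 µM, then 60.1 and 65.7 at 10 µM. At 2 µM none was called and the median was −0.21 beside −0.01, and the 2 µM libraries lay below the untreated ones without overlap for 9 of the 14, where 12.9% of all genes did so. The change of Irf7 at 2 µM was −0.41 (SE 0.138, adjusted p = 0.122) and that of Stat2 −0.51 (SE 0.101, adjusted p = 0.0221). From 2 to 10 µM edgeR called 7 of the 14 higher, beside 3.92% of all genes, the same 5 with Tyk2 (0.61, adjusted p = 0.00579) and Ikbke (0.69, adjusted p = 0.00733). DESeq2 called only the same 5. Tyk2 and Ikbke each held in 2 of 8 fits that left out a library. Tyk2 held without the third 0 µM or the third 2 µM library (otherwise adjusted p up to 0.0616), Ikbke without the first 0 µM or the third 2 µM library (otherwise up to 0.07). The call of Stat2 against 0 µM was lost without the second 0 µM or the second 10 µM library (adjusted p up to 0.0255), and those of Irf7, Irf9 and Usp18 held in all 17 alternatives. Ifnb1, the type I interferon that fibroblasts make, had at most 1 count in any library, under the limit that a count of 0 allows, so no change of it could be detected. Irf9 overlaps another annotated gene on its own strand, and Irf7, Usp18, Tyk2, Ikbke, Il7, Il18, Il4ra and Cxcl11 on the opposite one, which leaves their counts uncertain to that extent.

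No gene of NF-κB signalling and feedback was called higher at any dose by edgeR or DESeq2. Of all tested genes, edgeR called 0.119% higher at 2 against 0 µM, 1.95% at 10 against 0 µM and 3.92% at 10 against 2 µM. For 18 genes the absence of such calls is near those shares, so nothing is read from it. Of 18 genes of NF-κB signalling and feedback 1 was called at 10 against 0 µM, where 3.09% of all genes were, a count near the background. It was lower: Tnfaip3, the feedback inhibitor A20, had 8.82, 9.56 and 9.73 CPM at 0 µM, 7.67, 6.28 and 6.72 at 2 µM, then 6.23 and 5.32 at 10 µM (log2 fold change −0.70, SE 0.138, adjusted p = 0.00719). That call held in 8 of 17 alternatives and in 2 of 8 fits that left out a library, those without the first 0 µM or the first 2 µM library, with adjusted p values up to 0.0661 in the others. Nfkbia, the inhibitor IκBα and an early NF-κB target, changed by −0.27 (SE 0.112, adjusted p = 0.142). The list median was −0.15 beside 0.02 for all genes at 10 against 0 µM, and 0 were called at 10 against 2 µM by edgeR or DESeq2, with 5 of the 18 at an unadjusted p under 0.05, beside 36.5% of all genes.

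Of 14 genes that act on cytokine mRNAs or trim the ligands, 1 was called at 10 against 0 µM, beside 3.09% of all genes and thus near the background. It was Mmp3, a metalloprotease that can cut chemokines (log2 fold change −0.87, SE 0.116, adjusted p = 0.000708, held in all 17 alternatives). Mmp3 had 17.7, 16.3 and 16.1 CPM at 0 µM, 14.1, 14.7 and 16.6 at 2 µM, then 8.85 and 9.28 at 10 µM. From 2 to 10 µM 2 of the 14 were called, beside 5.51% of all genes. Mmp3 (−0.75, adjusted p = 0.00134) and Sdc4, a syndecan that binds chemokines at the cell surface (−0.60, adjusted p = 0.00115), were lower, and both calls were lost without the first 10 µM library (adjusted p = 0.0111 for Mmp3 and up to 0.011 for Sdc4), that of Sdc4 also without the first 2 µM library. Zfp36, which promotes the decay of mRNAs such as those of Il6 and Cxcl1, had 4.26, 6.79 and 6.99 CPM at 0 µM and 6.59 and 3.96 at 10 µM (−0.23, SE 0.231, adjusted p = 0.547), with libraries of both doses overlapping.

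**Figure D5:**
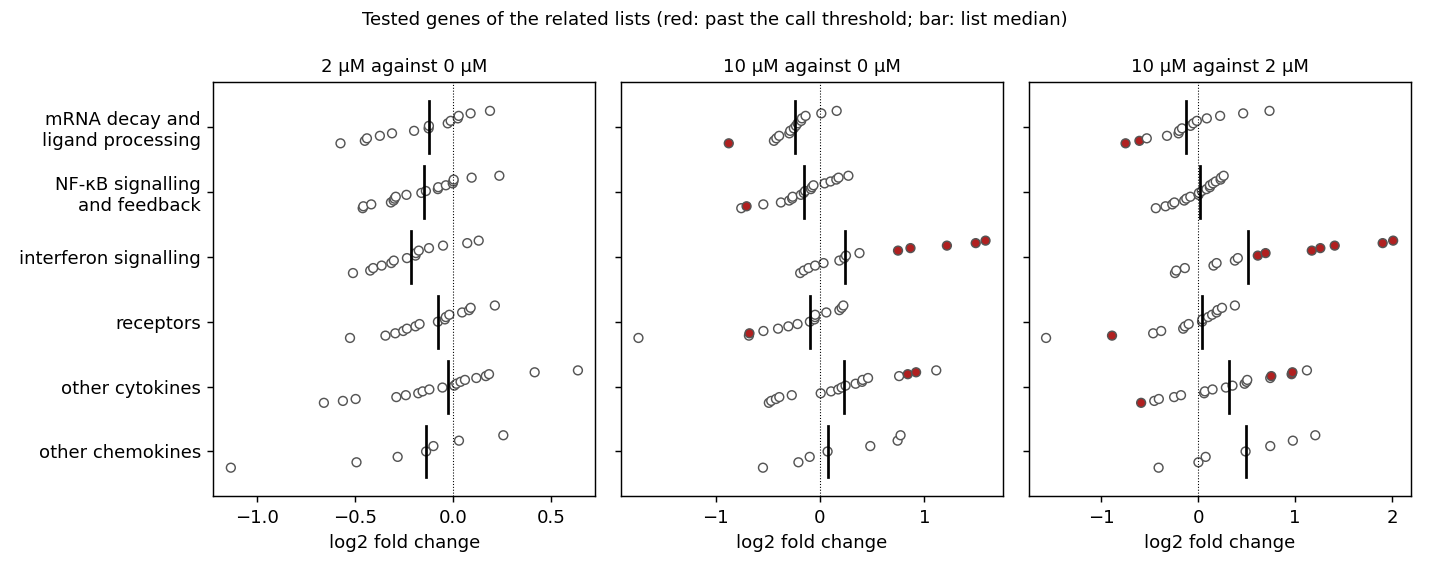
Log2 fold change (horizontal axes, each with its own range) of the tested genes of 6 related lists in the 3 dose comparisons, with a point per gene, red where past the call threshold, and a bar at the list median. Interferon signalling holds 5 and 7 genes called by edgeR at 10 against 0 and 2 µM, all higher, where 1.95% and 3.92% of all genes were called higher. DESeq2 called 5 in each of these. No gene of these lists was called at 2 against 0 µM.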

How the data were processed

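RNA-Seq was performed on 8 libraries of MEFs, grouped by RHPS4 dose from the labels. Per the labels and the methods, total RNA was depleted of nuclear ribosomal RNA and made into stranded libraries, and the submitters' processing notes name FastQC, Trim Galore, cutadapt, STAR 2.5.2a, featureCounts and the build mm10. The authors deposited raw counts per gene and library, with no normalization. The strand setting and the annotation of the counting are not given in the sources used here.

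Counts were fitted with edgeR 4.0.16 in R 4.3.3 (TMM, filterByExpr, glmQLFit and glmQLFTest over all 8 libraries, dose as the only factor, Benjamini-Hochberg adjustment over 14296 genes), with the study's thresholds. Standard errors are the log2 fold change divided by the square root of F. The study used DESeq2, which was an alternative here (1.42.0). The fit was also varied by normalization (RLE, total counts, TMM of nuclear genes), by the filter on low counts, by dropping the fold threshold, by fitting 2 groups at a time, by a replicate block and by leaving out each library. CPM for the correlations had a prior count of 2 before the log2. Gene positions and exon lengths came from GENCODE for GRCm38, and promoters from RefSeq. Scripts were tested on simulated counts with 200 changed genes. Other steps used Python 3.11.15, numpy 2.4.6, pandas 2.3.3 and matplotlib 3.10.9.

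The members and lists were chosen with earlier results of these data known. Named are the 10 members, in each list and comparison the called genes, 14 list genes of known relation to the members whatever their values, and the 3 genes most alike to each of 4 members, of which some are not reported here. The rule took at most 4 called genes per list and comparison, by p. Stat2, Tyk2 and Ikbke, beyond that limit, and Pdgfrb, Cd14, Cxcr2, Cx3cr1, Ccr2, Ptprc, Lum, Il1rap and Traf1 were named after their values were seen. The same holds for Adgre1, Cd68, Ccr1 and the other fibroblast markers.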

Additional observations from a re-analysis of the deposited data

How the results depend on the processing

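The 10 members were chosen on these contrasts, so the counts of them called are a description of the settings. Leaving out 1 library at a time gave 0 to 2 of the 10 members called at 2 against 0 µM, 3 to 6 at 10 against 0 µM and 2 to 3 at 10 against 2 µM. For other cytokines these ranges were 0 to 1 and 1 to 4 at 10 against 0 and 2 µM, for receptors 1 to 3 and 1 to 2, for interferon signalling 4 to 5 and 5 to 7, for NF-κB signalling 0 to 2 at 10 against 0 µM, and for mRNA decay and processing 1 to 2 in both. With only the 2 groups compared, 1 member was called at 2 against 0 µM (Il33), 0 other cytokines and 0 NF-κB genes at 10 against 0 µM, with fewer libraries in the fit. At 10 against 0 µM, RLE normalization and the filter of at least 10 counts in every library each called 1 other cytokine (Il7). Total counts called 0 receptors and 0 NF-κB genes there, and 1 decay or processing gene at 10 against 2 µM. No filter on low counts called 2 NF-κB genes (Tnfaip3 and Traf1), and no minimum fold change called 4 other cytokines and 2 receptors at 10 against 0 µM and 2 receptors at 10 against 2 µM. Apart from these the cause was not tested. The same-numbered libraries deviated together with correlations of 0.199, 0.0845 and 0.161 between 2 and 0 µM and −0.145 and −0.105 between 10 and 0 µM, so they were taken to share only a number. Every 2 µM library correlated best with its own number, as a hint. With the replicate block 0 other cytokines and 0 NF-κB genes were called at 10 against 0 µM, and over all genes 54, 322 and 735 in the 3 comparisons in place of 71, 442 and 788. DESeq2 called 109 genes at 2 against 0 µM in place of 71, and total counts 914 at 10 against 0 µM in place of 442. Over the fits that left out a library, the calls over all genes ran from 6 (without the second 2 µM library) to 144 (without the first 0 µM library), from 235 to 633 and from 444 to 884. No minimum fold change gave 107, 747 and 1539. The direction of Cxcl12 at 10 against 0 µM turned with total counts, to 0.014. At 2 against 0 µM the log2 fold change of Ccl7 ran from −0.193 to 0.009 over the fits without a library, turning without the second 2 µM library, that of Cxcl5 ran from −0.107 to 0.182, turning without the second 0 µM or the second 2 µM library, and the change of the log2 ratio of Cxcl10 to Il33, 0.045 over all libraries, lay between −0.050 and 0.122. Il6 was left out by the filter of at least 10 counts in every library, and gave no value in 3 of the 8 fits without a library. Depth limits Il6, Cxcl9, Cxcl11 and Ifnb1, with at most 19, 9, 17 and 1 counts in a library. With 2 libraries at 10 µM, leaving out 1 assumes that the other varies like the rest.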
